A study of Mus musculus with 4 samples.

Results

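The Hox genes encode homeodomain transcription factors that lie in 4 clusters, HoxA on chromosome 6, HoxB on chromosome 11, HoxC on chromosome 15 and HoxD on chromosome 2 of the mouse. They were read here from total RNA of wt and Top2β-null MEF cells, where Top2β is the DNA topoisomerase that relaxes DNA by passing one duplex through a double-strand break in another. The members are all gene rows whose identifier carries a symbol of HoxA, HoxB, HoxC or HoxD with a number in the GENCODE annotation of GRCm38. This gives 39 of the 54842 genes counted, with 11 genes in HoxA, 10 in HoxB, 9 in HoxC and 9 in HoxD.

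Both genotypes are mouse embryonic fibroblasts (MEF) kept untreated in the same medium, with 2 libraries of wild-type (wt) cells and 2 libraries of cells null for topoisomerase 2 beta. The study's stated question is whether topology has a role in the transcription of major satellite repeats, and the Hox genes are read here from the same RNA. The study's methods cite separate sources for the wt MEF cells and for the Top2β-null MEF cells, which came as a gift, so the origin of the cells and the loss of Top2β cannot be told apart. The labels do not say that replicates came from separate cultures, so the p-values measure the spread between these libraries, which may be technical.

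Within a cluster the genes are numbered by paralogue group, from 1 at one end to 13 at the other, and members with the same number in different clusters descend from one ancestral gene. In the embryo, low numbers are switched on early and reach towards the head, while high numbers are switched on later and remain towards the tail and the ends of the limbs. Cultured fibroblasts are known to keep much of the Hox pattern of the body site they were taken from. Polycomb proteins keep Hox genes silent and trithorax proteins keep them active, and Hox proteins bind DNA together with cofactors of the TALE homeodomain class.

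The sequences before the start sites of the 5 called genes that had at most 1 count in all libraries of one genotype are shown here, because these genes carried the largest differences. They were taken from RefSeq on GRCm38.p6, where 22 of the 39 Hox genes matched a promoter window by symbol. The window nearest the annotated 5′ end of the gene was used. Each run reads 5′ to 3′ on the strand of its gene and ends at the RefSeq start site, with every CpG in capitals. Bases inside a UTR annotated by GENCODE are left out, so that the Hoxd9 run holds 214 of 250 bases and ends at the GENCODE start.

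Hoxa9 (chr6:52227371-52227620, minus strand): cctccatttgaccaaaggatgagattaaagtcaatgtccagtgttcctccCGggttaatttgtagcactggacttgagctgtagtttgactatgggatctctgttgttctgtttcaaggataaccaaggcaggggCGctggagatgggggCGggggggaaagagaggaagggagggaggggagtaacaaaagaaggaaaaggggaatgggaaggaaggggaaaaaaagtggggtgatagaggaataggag
Hoxa10 (chr6:52240855-52241104, minus strand): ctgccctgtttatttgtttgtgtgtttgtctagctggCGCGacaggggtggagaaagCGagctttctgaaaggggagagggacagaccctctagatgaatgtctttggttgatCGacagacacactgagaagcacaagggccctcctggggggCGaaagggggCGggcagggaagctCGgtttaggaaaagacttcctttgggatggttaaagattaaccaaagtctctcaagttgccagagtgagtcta
Hoxd4 (chr2:74721728-74721977, plus strand): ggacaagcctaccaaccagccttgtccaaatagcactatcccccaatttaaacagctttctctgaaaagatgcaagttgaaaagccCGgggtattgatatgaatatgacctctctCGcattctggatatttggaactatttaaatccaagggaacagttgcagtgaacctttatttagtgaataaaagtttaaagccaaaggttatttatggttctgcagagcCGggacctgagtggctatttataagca
Hoxd8 (chr2:74704365-74704614, plus strand): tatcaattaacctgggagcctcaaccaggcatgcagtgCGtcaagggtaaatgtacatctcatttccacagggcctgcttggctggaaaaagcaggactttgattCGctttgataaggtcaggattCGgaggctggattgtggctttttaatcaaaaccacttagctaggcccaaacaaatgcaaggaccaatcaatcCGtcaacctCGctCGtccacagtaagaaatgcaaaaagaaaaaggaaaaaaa
Hoxd9 (chr2:74697513-74697726, plus strand): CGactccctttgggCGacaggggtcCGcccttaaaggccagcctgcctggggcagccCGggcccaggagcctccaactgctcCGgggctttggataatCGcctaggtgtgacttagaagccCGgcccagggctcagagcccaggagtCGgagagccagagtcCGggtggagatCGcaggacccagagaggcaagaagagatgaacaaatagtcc

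The Hoxa9 stretch lies in an intron of longer non-coding Hoxa9 transcripts, and the Hoxa10 stretch lies between genes. The Hoxd4 stretch lies in an intron of transcripts that start further upstream and belong to Hoxd3 and Hoxd4. The Hoxd8 stretch lies in an intron of the antisense RNA Hoxd3os1, and 74 bases of the Hoxd9 stretch lie in an exon of the antisense RNA Gm28793. The 250 bases before the start held 3 CpG for Hoxa9, 7 for Hoxa10, 3 for Hoxd4, 6 for Hoxd8 and 13 for Hoxd9. The median over the 22 Hox windows was 12 CpG, with a range of 2 to 35, and the median over all 32851 windows of the table was 6. Thus 3 of the 5 printed genes were at or below the median of all genes in CpG, and only Hoxd9 was above the Hox median.

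A search for 5 letter patterns on both strands of the 250 bases described these starts further. TATAAA, a core promoter pattern, was present in 12.4% of all windows and in 3 of the 22 Hox windows. CCAAT was present in 33.8% of all windows and in 13 of the 22 Hox windows. TGATTNAT, the core of a joint Pbx and Hox site, was present in 2.82% of all windows and in 1 Hox window. TGACAG, the core bound by Meis proteins, was present in 15.9% and in 2 Hox windows, and TTTATNG, the core bound by Cdx proteins, in 9.81% and in 2 Hox windows. TTTATNG can share letters with a reversed TATAAA. Of the printed genes, Hoxd4 held TTTATNG at 45 bases and CCAAT at 208 bases before the start. It also held TATAAA at 10 bases, on the strand opposite to the one printed. Hoxd8 held CCAAT at 62 bases, and the other printed genes held none. These are matches of letters only.

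Summed over all members, RNA from the Hox genes was similar in amount in both genotypes but came from different clusters. Values are normalized counts, which are read counts scaled to a common effective library size. The sum over all 39 genes was 17097 and 16864 normalized counts in wt against 16346 and 16950 in Top2β-null MEF cells, and these ranges overlapped. HoxA gave 3272 and 3349 normalized counts in wt against 10557 and 10845 in Top2β-null MEF cells, or 3.23 times the wt mean. HoxB gave 10448 and 10326 in wt against 5755 and 6055 in Top2β-null MEF cells. HoxD gave 3370 and 3186 in wt, and a single read over 9 genes in both Top2β-null libraries together. HoxC stayed under 50 normalized counts in every library.

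**Figure D1:**
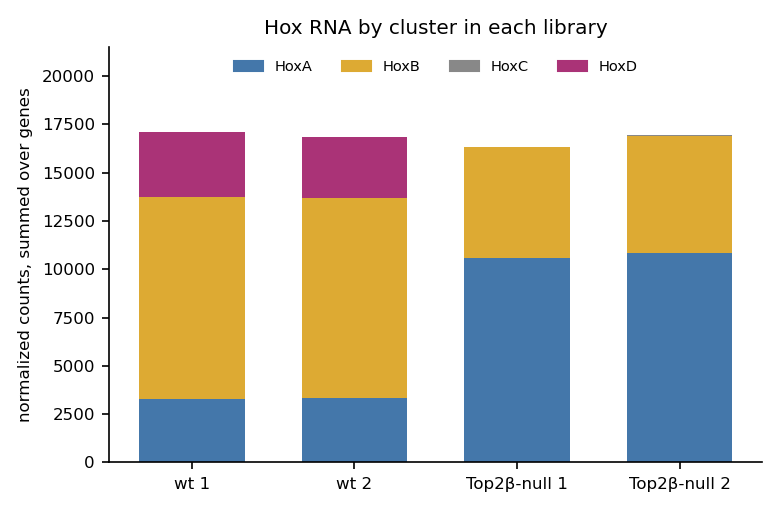
Normalized counts summed over the genes of each Hox cluster in each of the 4 libraries, stacked by cluster. The totals lie between 16346 and 17097, while the HoxA segment is larger and the HoxD segment is missing in both Top2β-null libraries.

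As shares of all Hox reads, HoxA made up 19.1% and 19.9% in wt against 64.6% and 64.0% in Top2β-null MEF cells. HoxB made up 61.1% and 61.2% in wt against 35.2% and 35.7%. HoxD made up 19.7% and 18.9% in wt against 0.00634% and 0%. Each cluster's share differed between the genotypes by more than between replicates.

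For each gene, Top2β-null MEF cells were compared with wt MEF cells by edgeR's quasi-likelihood test, fitted over all genes and repeat families that reached 10 counts in 2 or more libraries. A gene was called when its Benjamini-Hochberg adjusted p was below 0.05, its log2 fold change was above 1 in size and its mean over the 4 libraries exceeded 100 normalized counts. Of the 39 Hox genes, 23 were tested, 7 were called higher and 7 lower in Top2β-null MEF cells. The 14 calls are 35.9% of all 39 members, tested or not. They are 14 of the 23 members tested, beside 10.8% of the 25085 genes tested in the whole table. In the higher direction 5.52% of all genes tested were called and in the lower direction 5.25%. All 7 higher calls were in HoxA, and the 7 lower calls were in HoxB and HoxD. An adjusted p below 0.05 alone was reached by 23 of the 23 tested members but also by 66.4% of all genes tested, so that this condition says little by itself. The 2 libraries of each genotype did not overlap with those of the other in any of the 23. This was not counted over all genes, so it also says little by itself. The tested members passed the filter partly through the genotype in which they were high. The other 16 members had too few reads to test, and 11 of the 39 had at most 3 counts in every library.

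**Figure D2:**
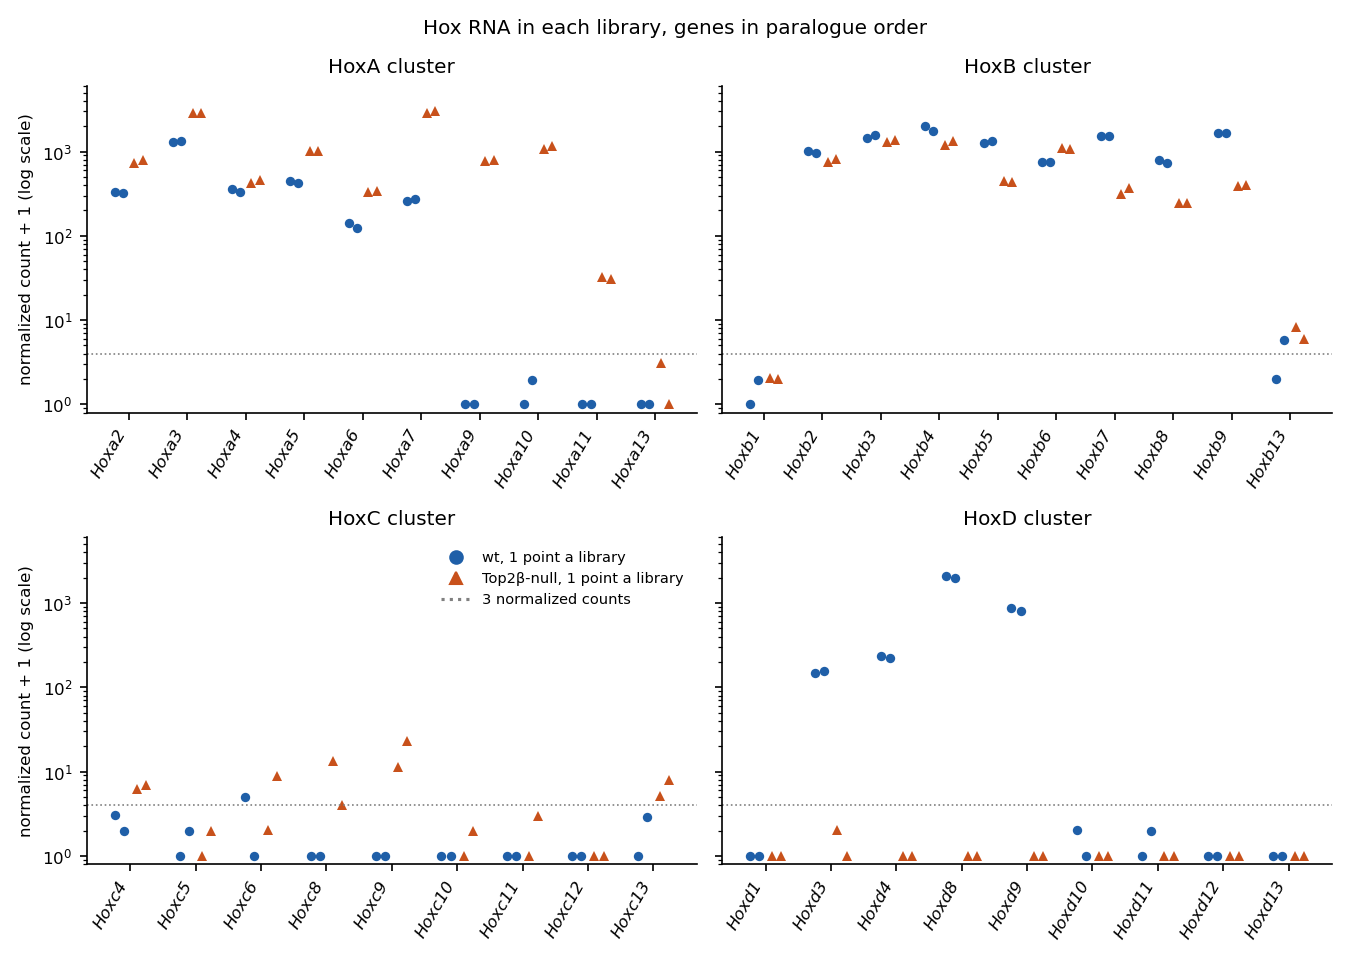
Normalized count plus 1 of 38 Hox genes in every library on a log axis, with genes in the order of their numbers along each cluster. HoxA genes from Hoxa9 to Hoxa11 lie near the base of the axis in wt only, HoxD genes from Hoxd3 to Hoxd9 lie there in Top2β-null MEF cells only, and HoxC lies low in both.

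In HoxA, the difference between the genotypes depended on position. Hoxa2 to Hoxa6 were expressed in both genotypes and differed by at most 2.55-fold, whereas Hoxa7 differed by 11.0-fold and Hoxa9 and Hoxa10 had RNA in Top2β-null MEF cells alone, apart from 1 read. Of the 11 genes, 10 were tested and 7 were called, all higher. The median log2 fold change over the 10 was 1.29, against −0.0058 over all genes tested.

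Hoxa2, which sets the identity of the second pharyngeal arch, had 334 and 324 normalized counts in wt against 738 and 793 in Top2β-null MEF cells, a rise of 2.33-fold (log2 1.22 ± 0.08, edgeR adjusted p = 4.9e-10). Hoxa3, needed for organs of the third pharyngeal arch such as the thymus, had 1281 and 1334 in wt and rose to 2899 and 2842 (log2 1.13 ± 0.05, edgeR adjusted p = 2.3e-12). Its annotated exons share 25.4% of their bases with RNAs of the opposite strand.

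The middle of the cluster had one weak member between stronger ones. Hoxa4 had 356 and 328 in wt against 417 and 460 in Top2β-null MEF cells, a log2 fold change of 0.36 ± 0.09 that stayed under the cut-off. Hoxa5, a gene needed for lung development, had 443 and 422 in wt against 1009 and 1009 in Top2β-null MEF cells, a rise of 2.33-fold (log2 1.22 ± 0.06, edgeR adjusted p = 7.2e-11). Hoxa6 had 139 and 122 in wt against 329 and 337 in Top2β-null MEF cells, a rise of 2.55-fold (log2 1.35 ± 0.12, edgeR adjusted p = 4.4e-08). Hoxa5 and Hoxa6 have no exon shared with another annotated gene, and in both the replicates lay close together beside the distance between genotypes.

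The 2 genotypes were far apart at Hoxa7, Hoxa9 and Hoxa10. Hoxa7, a gene of the trunk, had 259 and 274 normalized counts in wt against 2864 and 3025 in Top2β-null MEF cells, a rise of 11.0-fold (log2 3.46 ± 0.06, edgeR adjusted p = 7.2e-17). An antisense RNA, Hoxaas3, covers 20.4% of its exons. Hoxa9, which is best known from haematopoietic stem cells and leukaemia, had 0 reads in both wt libraries and 764 and 787 normalized counts in Top2β-null MEF cells. Taking 3 counts per library as the floor of a group without reads, Hoxa9 was at least 262-fold higher in Top2β-null MEF cells (edgeR adjusted p = 9.5e-15).

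Hoxa10, which acts in limb and uterus, had 0 reads and 1 read in the wt libraries and 1069 and 1149 normalized counts in Top2β-null MEF cells. The ratio of pooled counts was 2248, with an exact 95% interval of 403 to 88849 that covers counting error only (edgeR adjusted p = 4.3e-16). Hoxa11, needed for the forearm skeleton and the kidney, had 0 reads in wt and 31.1 and 29.7 normalized counts in Top2β-null MEF cells, at least 10.3-fold higher (edgeR adjusted p = 2.2e-06), but its mean of 15.2 was under the cut-off and 35% of its exons overlap the antisense RNA Hoxa11os. Without either Top2β-null library, Hoxa9, Hoxa10 and Hoxa11 were not tested as a single library then has 10 or more reads. Hoxa13, at the end of the cluster, had 2 reads in one Top2β-null library and none in the others. Per kb of exon, the level in Top2β-null MEF cells was 339 for Hoxa10, 13.3 for Hoxa11 and 0.419 for Hoxa13, while in wt it was 92.8 for Hoxa7 and 0 for Hoxa9.

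HoxB was expressed in both genotypes from Hoxb2 to Hoxb9, and was lower in Top2β-null MEF cells mainly in its second part. Of 10 genes, 8 were tested, 4 were called lower and none higher, and the median log2 fold change over the 8 was −1.07. Hoxb6 went the opposite way to its neighbours.

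Hoxb2, a hindbrain gene, had 1012 and 972 normalized counts in wt against 747 and 808 in Top2β-null MEF cells, a log2 fold change of −0.35 ± 0.06 that was 0.018 with scaling to Hprt. Hoxb3 had 1466 and 1579 in wt against 1314 and 1378 in Top2β-null MEF cells, a log2 fold change of −0.18 ± 0.05 that was 0.19 with scaling to Hprt and had an adjusted p of 0.057 with DESeq2. Hoxb4, known for its effect on blood stem cells, had 1994 and 1776 in wt against 1182 and 1352 in Top2β-null MEF cells, a log2 fold change of −0.57 ± 0.07. These 3 genes had an adjusted p below 0.05 by edgeR but did not reach the cut-off on fold change. The exons of Hoxb3 share 52.9% and those of Hoxb2 27.3% of their bases with the antisense RNA Hoxb3os, which had 1586 and 1700 normalized counts in wt against 1393 and 1500 in Top2β-null MEF cells.

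Hoxb5 had 1277 and 1317 in wt against 447 and 430 in Top2β-null MEF cells, a fall of 2.96-fold (log2 −1.56 ± 0.06, edgeR adjusted p = 1.7e-12). Hoxb6, its neighbour, had 743 and 751 in wt against 1112 and 1067 in Top2β-null MEF cells. Its log2 fold change of 0.54 ± 0.06 (edgeR adjusted p = 4.6e-07) stayed under the cut-off. Hoxb6 is thus the only tested HoxB member with a positive value, between 2 called genes that were lower. Its exons are not shared with another annotated gene.

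Hoxb7 had 1531 and 1543 normalized counts in wt against 314 and 372 in Top2β-null MEF cells, the largest fall of the cluster at 4.47-fold (log2 −2.16 ± 0.07, edgeR adjusted p = 1.8e-13). Hoxb8, a trunk gene also known from the grooming behaviour of mutant mice, had 786 and 734 in wt against 243 and 243 in Top2β-null MEF cells, a fall of 3.13-fold (log2 −1.64 ± 0.08, edgeR adjusted p = 2.3e-11). Hoxb9 had 1638 and 1648 in wt against 387 and 400 in Top2β-null MEF cells, a fall of 4.17-fold (log2 −2.06 ± 0.06, edgeR adjusted p = 3.2e-14). None of these 3 was silent in Top2β-null MEF cells, in contrast to Hoxd8 and Hoxd9. Hoxb1 had at most 1 read in any library, and Hoxb13, which lies apart from the rest of the cluster, had 1 and 5 reads in wt against 7 and 5 in Top2β-null MEF cells.

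In HoxD, wt MEF cells expressed 4 genes from Hoxd3 to Hoxd9 and Top2β-null MEF cells expressed none of the 9. Hoxd8, a trunk gene, had 2123 and 1995 normalized counts in wt and 0 reads in both Top2β-null libraries. It was at least 677-fold lower in Top2β-null MEF cells (edgeR adjusted p = 8.5e-17). Hoxd9, which acts in the upper limb segment with its paralogues, had 868 and 814 in wt and 0 reads in Top2β-null MEF cells, at least 277-fold lower (edgeR adjusted p = 8.1e-15). Neither gene shares an exon with another annotated gene.

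Hoxd4, a gene of the upper neck vertebrae, had 233 and 220 normalized counts in wt and 0 reads in Top2β-null MEF cells, at least 74.6-fold lower (edgeR adjusted p = 3.3e-11). Hoxd3, which also patterns the neck vertebrae, had 145 and 156 in wt and 1 read and 0 reads in Top2β-null MEF cells. Its ratio of pooled counts, wt over Top2β-null, was 297 with an exact 95% interval starting at 53.0, and it was not called because its mean of 75.5 was under the cut-off (edgeR adjusted p = 2.4e-10). The split between these 2 genes is uncertain, since 62.3% of the exon bases of Hoxd3 and 52.3% of those of Hoxd4 are shared with each other or with Gm28230 on the same strand. Without either wt library, Hoxd3, Hoxd4, Hoxd8 and Hoxd9 have 10 or more reads in a single library and were not tested. Hoxd1 and Hoxd10 to Hoxd13 had at most 1 read in any library of either genotype.

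HoxC gave almost no reads in either genotype. Its 9 genes together had 6 and 4 reads in wt against 32 and 50 in Top2β-null MEF cells. Only Hoxc9 was tested, with 0 reads in wt and 10.4 and 21.8 normalized counts in Top2β-null MEF cells, at least 5.42-fold higher (edgeR adjusted p = 9.7e-05), and its mean of 8.04 was far under the cut-off. Hoxc8 had 0 reads in wt against 12 and 3, and Hoxc13 had 0 and 2 against 4 and 7. Hoxc6 had 4 and 0 reads in wt against 1 and 8, Hoxc4 had 2 and 1 against 5 and 6, and the other HoxC genes had at most 2 reads in any library. At 133116830 to 149647278 counts per library, levels of this size are near the limit of detection.

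**Figure D3:**
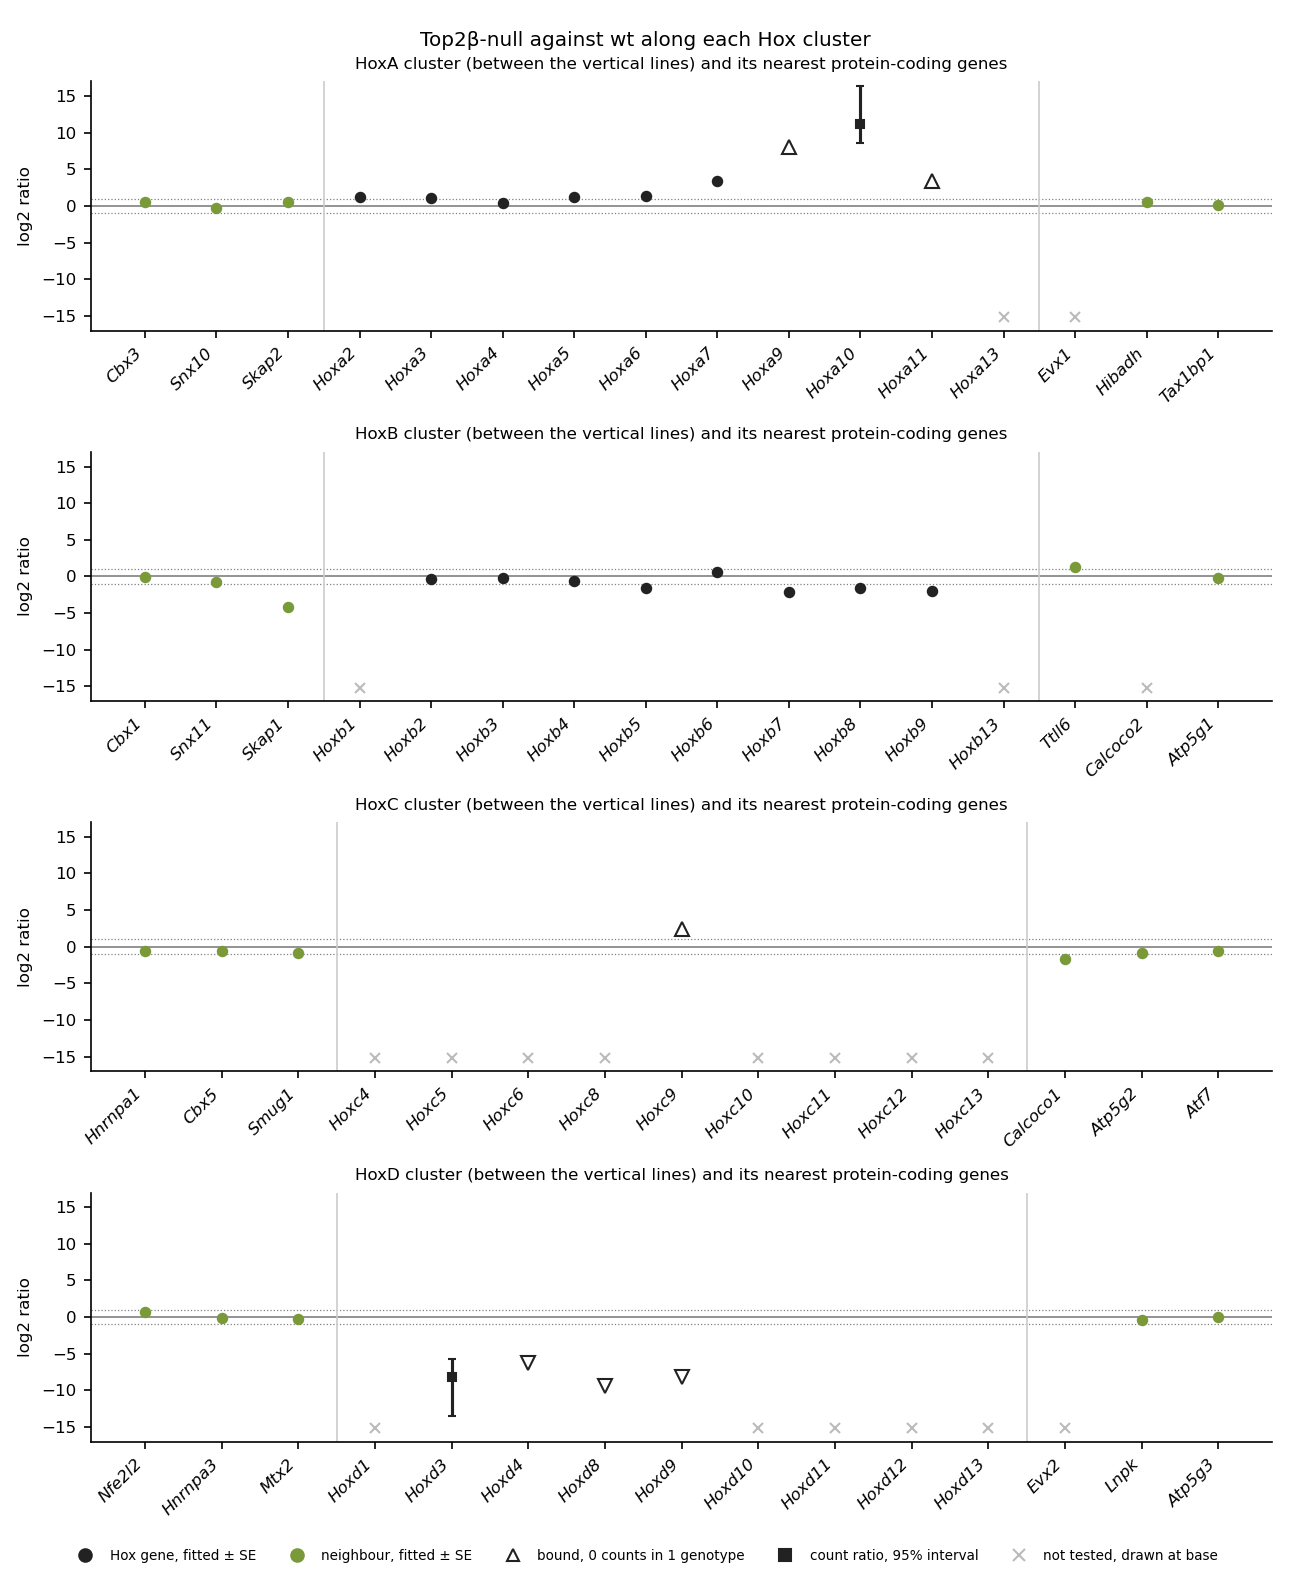
Log2 ratio of Top2β-null over wt for 38 Hox genes in order and for the 3 nearest protein-coding genes on each side of each cluster. Circles are fitted values with standard errors, open triangles are bounds for genes without reads in one genotype, squares are count ratios with 95% intervals, crosses at the base are untested genes and dotted lines mark a log2 ratio of 1 in size. Values lie above the upper dotted line from Hoxa5 to Hoxa11 and below the lower one from Hoxb7 to Hoxb9 and from Hoxd3 to Hoxd9. Of the other Hox genes drawn, Hoxa2, Hoxa3 and Hoxc9 also lie above the upper line and Hoxb5 lies below the lower one.

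Set side by side by number, the paralogues show which clusters supplied each group. Levels are compared here as normalized counts per kb of annotated exon, summed over the members of a group. Group 5 had 696 ± 2.65 (SD, n = 2) per kb in wt against 695 ± 4.04 in Top2β-null MEF cells, and the libraries of both genotypes overlapped. Within this group, however, HoxA supplied 33.1% of the sum in wt against 77.3% in Top2β-null MEF cells, and HoxB nearly all of the rest. Group 7 had 1088 ± 8.90 against 1246 ± 66.4 per kb, without overlap of the genotypes, and HoxA supplied 8.53% of it in wt against 82.2% in Top2β-null MEF cells. These sums describe the libraries and were not tested.

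**Figure D4:**
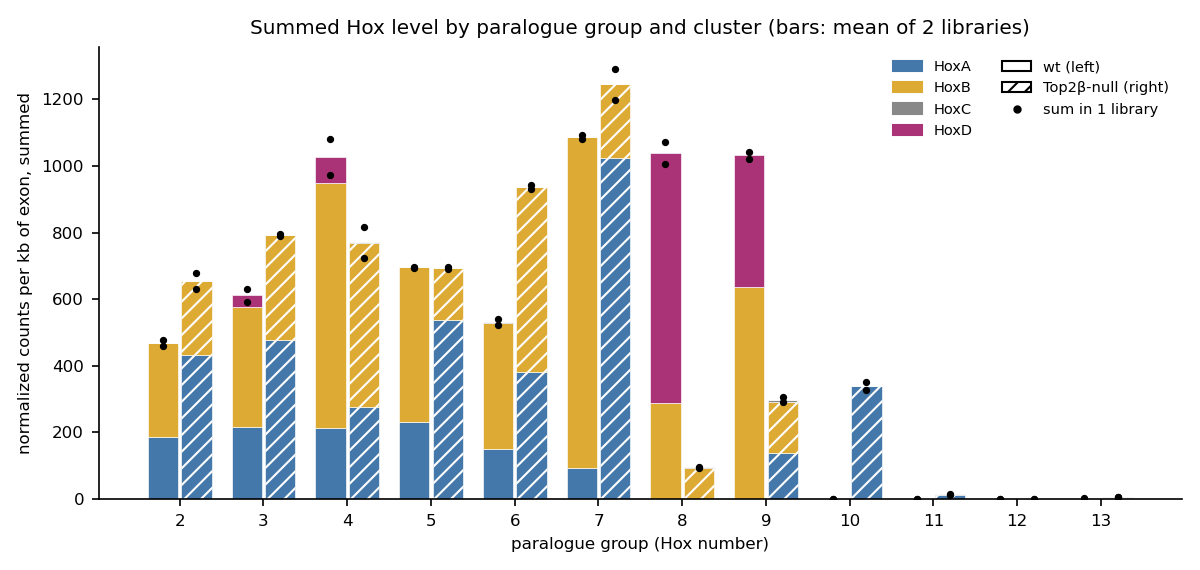
Normalized counts per kb of exon summed over the members of paralogue groups 2 to 13, with bars for the mean of 2 libraries stacked by cluster and points for single libraries, wt on the left and hatched Top2β-null on the right. Groups 8 and 9 are lower and group 10 is nearly all in Top2β-null MEF cells, while group 5 has overlapping sums made of different clusters.

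Groups 8 to 10 differed in sum as well. Group 8 had 1039 ± 47.0 per kb in wt against 94.9 ± 2.56 in Top2β-null MEF cells, where Hoxd8 had no reads and Hoxb8 was lower. Group 9 had 1032 ± 15.1 against 299 ± 9.76 per kb, where wt had Hoxb9 and Hoxd9 and Top2β-null MEF cells had Hoxb9 and Hoxa9. Group 10 had 0.426 ± 0.184 per kb in wt against 339 ± 17.7 in Top2β-null MEF cells, nearly all of it from Hoxa10. Group 6 was higher, at 530 ± 12.7 against 938 ± 8.42 per kb, and in this group both Hoxa6 and Hoxb6 had the higher value in Top2β-null MEF cells.

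The order of single genes changed with the clusters. In wt, Hoxb7 had the highest level per kb at 995 ± 5.23 (SD, n = 2), followed by Hoxd8 at 750 ± 33.0 and Hoxb4 at 735 ± 60.1, which overlapped each other, and then by Hoxb9 at 638 ± 2.67 and Hoxb5 at 466 ± 10.3. In Top2β-null MEF cells, Hoxa7 came first at 1024 ± 39.6 per kb, followed by Hoxb6 at 555 ± 16.4, Hoxa5 at 538 ± 0.187, Hoxb4 at 494 ± 46.9 and Hoxa3 at 477 ± 6.74, of which Hoxb4 and Hoxa3 overlapped. Hoxb4 is the only gene among the first 5 of both genotypes. Hoxa7 stood at 92.8 ± 3.67 per kb in wt, and Hoxb7 at 222 ± 26.8 in Top2β-null MEF cells.

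The other genes annotated inside the clusters, mostly non-coding RNAs, were read with the same rule. Of 46, 21 were tested, 3 were called higher and 2 lower. The 5 calls are of 21 genes tested, beside 10.8% of all genes tested. The 3 higher ones lie in HoxA. Hoxaas3, antisense to the region of Hoxa3 to Hoxa7, had 162 and 158 normalized counts in wt against 848 and 891 in Top2β-null MEF cells (log2 2.44 ± 0.08, edgeR adjusted p = 2.4e-13). Hoxaas2 had 291 and 345 against 718 and 761 (log2 1.22 ± 0.08), and Gm28308, a gene annotated as protein-coding that shares exons with Hoxa2 and Hoxa3, had 77.7 and 77.3 against 193 and 189 (log2 1.30 ± 0.15).

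The 2 lower ones, both antisense RNAs, lie in HoxB and HoxD. Hoxb5os had 536 and 538 normalized counts in wt against 176 and 147 in Top2β-null MEF cells (log2 −1.74 ± 0.10, edgeR adjusted p = 2.3e-10), and Hoxd3os1 had 308 and 332 in wt and 0 reads in Top2β-null MEF cells, at least 105-fold lower. With Gm28230, annotated as protein-coding, at 164 and 165 in wt against 0 reads and 1 read, and the antisense RNA Haglr at 15.1 and 26.1 against 0 reads, all 3 tested genes of this list in HoxD had at most 1 read in Top2β-null MEF cells. Hotairm1, inside HoxA, had 293 and 336 against 460 and 426 (log2 0.49 ± 0.09), while Hotair, inside HoxC, had 1 read in all. An exception to the direction of its cluster was Gm53 in HoxB, with 10.1 and 7.73 against 155 and 179 (log2 4.22 ± 0.27, edgeR adjusted p = 6.6e-10), a gene not called because of its mean of 88.1 and chosen for mention after its values were seen. The libraries were stranded, but the strand setting of the counting is not given in the sources used here, so reads of a Hox gene and of its antisense RNA cannot be told apart where they overlap.

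Outside the clusters, no neighbour of HoxA or HoxD was called. Of the 24 protein-coding genes that are the 3 nearest on each side of each cluster, 21 were tested, none was called higher and 2 were called lower, beside 10.8% of all genes tested. An adjusted p below 0.05 by edgeR was reached by 6 of them in the higher and 14 in the lower direction, beside 66.4% of all genes tested. Beside HoxD, Mtx2 had a log2 fold change of −0.24 ± 0.03 and Lnpk of −0.45 ± 0.03, and Evx2, the homeobox gene 8.75 kb beyond Hoxd13, had 1 read in all. Beside HoxA, Skap2 had 0.54 ± 0.04 and Hibadh 0.56 ± 0.03, and Evx1 had no reads.

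The 2 called neighbours lie beside HoxB and HoxC. Skap1, an adaptor protein of T cell signalling that begins 96.3 kb beyond Hoxb1, had 648 and 642 normalized counts in wt against 32.1 and 35.7 in Top2β-null MEF cells (log2 −4.24 ± 0.12, edgeR adjusted p = 3.5e-14). This is a larger difference than that of any tested HoxB gene, at the end of the cluster where Hoxb2 and Hoxb3 differed least. Calcoco1, a coactivator that begins 199 kb beyond Hoxc13, had 2125 and 2204 against 718 and 669 (log2 −1.64 ± 0.06, edgeR adjusted p = 2.1e-13).

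Among the TALE homeodomain cofactors of Hox proteins, 9 of 9 were tested, 1 was called higher and 1 lower, beside 5.52% and 5.25% of all genes tested. The 2 calls were 22.2% of a short list, beside 10.8% of all genes tested. Meis3 had 1196 and 1230 normalized counts in wt against 277 and 265 in Top2β-null MEF cells (log2 −2.16 ± 0.07, edgeR adjusted p = 9.7e-14). This difference was far larger than the spread between replicates. The cofactors that were not called had log2 fold changes between −0.89 for Pknox2 and 0.78 for Pbx3.

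Of 28 known regulators of Hox genes, 24 were tested, 2 were called higher and 1 lower. The 3 calls are of 24 genes tested, beside 10.8% of all genes tested. The Polycomb subunit Phc1 had 2205 and 2139 normalized counts in wt against 5511 and 5427 in Top2β-null MEF cells (log2 1.33 ± 0.04). Men1, the menin subunit of the MLL complexes, had 4524 and 4638 against 9253 and 9396 (log2 1.03 ± 0.03), which is just above the cut-off. Without wt replicate 1 its log2 fold change was 0.99 and it was not called, which left 2 regulators called. Kdm6b, a demethylase that removes the Polycomb mark H3K27me3, had 14304 and 14671 against 3799 and 3726 (log2 −1.95 ± 0.03, edgeR adjusted p = 4.7e-18). Ezh2, the methyltransferase that sets this mark, had 7908 and 7998 against 14653 and 14596 (log2 0.88 ± 0.02) and stayed under the cut-off. Cdx2 and Cdx4, activators of trunk Hox genes in the embryo, had 0 reads in all 4 libraries, and Cdx1 had at most 1.

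Factors that mark other positions of the body were mostly silent. Of 13 listed, 5 were tested and 1 of these was called higher and 1 lower, beside 10.8% of all genes tested. The 3 limb factors Tbx4, Tbx5 and Pitx1 had at most 4 reads in any library. Shox2, a factor of the proximal limb, had 197 and 156 normalized counts in wt against 1265 and 1282 in Top2β-null MEF cells (log2 2.85 ± 0.09, edgeR adjusted p = 4.6e-14). En1, a marker of dermal lineages and of the ventral limb, had 1026 and 1042 against 370 and 376 (log2 −1.47 ± 0.07, edgeR adjusted p = 7.9e-12).

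Checks on the cells themselves moved with genotype too. Top2b had 18259 and 18465 normalized counts in wt against 3879 and 3789 in Top2β-null MEF cells, a log2 fold change of −2.26 ± 0.03 (edgeR adjusted p = 6.6e-19). Of 12 fibroblast markers, 11 were tested, 4 were called higher and 2 lower, beside 10.8% of all genes tested that were called. The sum over the 12 was 1342590 and 1366550 normalized counts in wt against 940825 and 947678. The 2 lower were the collagen genes Col1a1 (log2 −1.38) and Col3a1 (log2 −1.01), and Vim had −0.84 without being called. The 4 higher were Dcn, with 226 and 223 in wt against 7053 and 7239, Thy1 (log2 2.07), Pdgfrb (log2 1.88) and Pdgfra (log2 1.16). Among markers of other cells, the neural list summed to 5537 and 5451 in wt against 8048 and 8416, and Sox2, a factor of neural progenitors and pluripotent cells, had 0 reads in wt against 677 and 730 normalized counts. Tubb3 was also called higher (log2 1.15), while Map2 had 3514 and 3442 in wt against 3048 and 3088 (log2 −0.18). For the other lists the summed levels were 2420 and 2501 against 1351 and 1356 for leukocytes, 73.7 and 72.4 against 22.8 and 25.8 for epithelium, 165 and 162 against 252 and 258 for endothelium, 39.4 and 37.7 against 12.4 and 9.90 for neural crest, and 89.8 and 141 against 5.18 and 2.97 for muscle. The leukocyte sum followed Cd68, with 1641 and 1688 in wt against 302 and 289, while Fcer1g, Itgam and Csf1r had log2 fold changes of 0.74, 4.68 and 0.36. In the endothelial list Kdr had a log2 fold change of 1.54 and Tek of −2.54. The muscle sum was nearly all Des, with 88.8 and 139 in wt against 2.07 and 0.990. The defining markers Tyrobp, Foxd3 and Myog had 0 reads in all libraries, and Ptprc, Epcam, Rbfox3 and Myod1 had at most 7. The part of these differences in the Hox values was not tested. In bulk RNA, fewer cells of a type and less RNA per cell cannot be told apart.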

How the data were processed

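Libraries of total RNA without ribosomal RNA were made with a stranded kit, 2 for each genotype of MEF cells. The authors trimmed paired-end reads, aligned them to mm10 (GRCm38) by STAR and used TEtranscripts to count reads over Gencode genes and over repeat families of RepeatMasker. What they deposited are raw counts per gene and repeat family, without normalization, of 133116830 to 149647278 per library, and the mode of counting is not given in the sources used here. Columns were matched to samples by their labels. Symbols, positions, exon lengths and overlaps come from GENCODE M21, while the authors counted on another release of the same build.

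The test was edgeR 4.0.16 in R 4.3.3 (TMM over genes and repeats, quasi-likelihood, genotype as the only term, limma 3.58.1) on 25085 genes and 1481 repeat families that reached 10 counts in 2 or more libraries. P-values were adjusted by Benjamini-Hochberg over all 26566 features. The cut-offs are those which the study applied to DESeq2. DESeq2 1.42.0 was an alternative, beside other scalings and filters, a replicate block and leaving out each library. Standard errors were taken from the F statistic, as the log2 fold change over its square root. With 2 libraries per genotype no exact permutation test can go below p = 0.33. Groups with at most 3 counts per library were taken as being at the floor, and bounds and exact 95% intervals cover counting error only. The code was tested on simulated data. The spread between replicates exceeded counting error, with a chi-square of 3.65 (wt) and 5.07 (Top2β-null) for each degree of freedom.

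Per-library values are given for Hox genes with a mean over 100 normalized counts in a genotype and otherwise by range or where the genotypes did not overlap, while the called genes of every other list are named with values, some by their log2 fold change alone. Members and lists were chosen with earlier results of these data known. Some genes of the members and lists are counted in the totals but their values are not reported here.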

Additional observations from a re-analysis of the deposited data

How the results depend on the processing

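Of 218 values of 22 tested Hox genes over 11 other settings, 212 kept their direction and their side of the adjusted p of 0.05, 4 kept the direction but lost the p, and 2 reversed. The 4 were Hoxb3 with DESeq2, with total count scaling, without wt replicate 2 and without Top2β-null replicate 1. The 2 reversals came with scaling to Hprt, which moved the median log2 fold change of all genes to 0.36: Hoxb2 was then 0.018 and Hoxb3 0.19. The same 14 Hox genes were called with DESeq2, TMM over genes alone, total count scaling, no filter and the replicate block. With Hprt scaling 13 were shared, since the mean of Hoxd4 fell under 100, and the calls were 5 for regulators and 8 for other genes inside the clusters.

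Requiring 100 counts in every library removes genes without reads in one genotype by construction and left 4 Hox genes lower, 15 with an adjusted p below 0.05, 3 other genes inside the clusters and 1 gene beside them. With the adjusted p as the only condition, 11 Hox genes were higher and 12 lower, and the calls were 8 for TALE cofactors, 21 for regulators, 19 for other genes inside, 20 for genes beside, 5 for positional factors and 66.4% of all genes. With a mean above 10 they were 10 for other genes inside, 4 for positional factors and 20.6% of all genes.

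Leaving out each library gave 4 to 8 Hox genes lower and 5 to 7 higher. Without either wt library the count lower was 4, because Hoxd4, Hoxd8 and Hoxd9 then have reads in 1 library only and are not tested, and without either Top2β-null library the count higher was 5, because Hoxa9 and Hoxa10 are then not tested. Calls among the other genes inside the clusters ranged from 5 to 8, the highest without Top2β-null replicate 1. Same-numbered libraries did not deviate together (correlation 0.021 over 17952 features), so the numbers do not pair the libraries, and the replicate block left the 14 Hox calls as they were.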
